A study of Schmidtea mediterranea with 18 samples.

Results

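The comparison described here is *hippo (RNAi)* against control planarians (*Schmidtea mediterranea*) at 3 weeks of inhibition. It rests on 6 of the 18 libraries of the series. The 3 *hippo (RNAi)* libraries at 3 weeks are numbered 266O, 267O and 260O, and the 3 libraries of *gfp (RNAi)* controls at 3 weeks are 257O, 258O and 259O. They were chosen by the treatment and week on their labels. The *hippo (RNAi)* animals were injected with double-stranded RNA for *hippo*, and the controls with double-stranded RNA for *gfp*, which planarians lack. All animals were starved asexual worms of the clonal BCN-10 line, and each library was made from the RNA of a pool of 5 whole animals. The other 12 libraries are *hippo (RNAi)* and control animals at 1 and 4 weeks, with 3 of each. They enter the estimate of the spread and serve as a background for the values at 3 weeks.

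Hippo is a protein kinase at the head of a signalling cascade known from flies and vertebrates. It acts through the kinase Warts, which phosphorylates the transcriptional coactivator Yorkie and so keeps it out of the nucleus. In those animals, loss of Hippo activity lets Yorkie drive genes of growth and survival, and the core kinases also act on the centrosome and spindle in mitosis. In planarians all new cells come from neoblasts, the dividing stem cells, so a whole-animal library holds the RNA of stem cells, their progeny and every differentiated tissue together. In such libraries fewer cells of a type and less RNA per cell cannot be told apart. The comparison asks which transcripts differ once *hippo* has been inhibited by RNAi for 3 weeks.

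The deposited values are TPM, the estimated reads of each transcript divided by its length and set to a common total per library. The depth behind them is unknown, so no counting error can be given. Between 36602 and 37443 transcripts were above 0 in the *hippo (RNAi)* libraries, and between 36686 and 37071 in the controls. Libraries 266O and 267O of the *hippo (RNAi)* group carry numbers apart from those of the controls, whereas 260O directly follows them. At 4 weeks the *hippo (RNAi)* libraries 268O and 269O continue that run of numbers, which holds no control and no library of 1 week. The labels do not say what the numbers stand for. Library 266O differed from 267O by a median of 0.117 on the log2(TPM + 1) scale across transcripts, and from 260O by 0.123, while 267O and 260O differed by 0.106. Pairs of controls differed by 0.112 to 0.115. Pairs of a *hippo (RNAi)* and a control library differed by 0.153 to 0.186. The first principal component of the 6 libraries held 34.9% of the variance and placed the *hippo (RNAi)* libraries at 24.3, 22.6 and 30.2, against -26.9, -20.2 and -30.1 for the controls. The second component (19.3%) set libraries apart within each group, with 12.9, 4.36 and -18.95 for *hippo (RNAi)* libraries 266O, 267O and 260O, and 19.3, 15.5 and -33.1 for controls 257O, 258O and 259O. The deposited table does not pair its identifiers with gene names, so neither the level of *hippo* nor markers of neoblasts or other cell types could be used to check the labels.

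Of 41745 listed transcripts, 28735 averaged 1 TPM or more over the 18 libraries and were tested. Among these, 4441 differed between *hippo (RNAi)* animals and controls at 3 weeks. They were called by limma at an adjusted p below 0.05 (Benjamini-Hochberg). It fits a linear model to each transcript and draws on all transcripts to estimate the variance. This is 15.5% of the transcripts tested. A total of 2928 transcripts (10.2%) were higher in *hippo (RNAi)* animals and 1513 (5.27%) were lower. The median log2 fold change was 0.32 among those that were higher and -0.26 among those that were lower. Over all transcripts tested it was 0.00, with the central 90 percent between -0.40 and 0.49. Most of the called changes were therefore small. Among the transcripts that were higher, 1030 (35.2%) changed by less than 0.25 on the log2 scale, and among those that were lower 701 (46.3%) did. A change of at least 1.5-fold was reached by 862 called transcripts (3% of those tested), 622 of them higher (2.16%) and 240 lower (0.835%). A change of at least 2-fold was reached by 219 (0.762%), of which 160 were higher (0.557%) and 59 lower (0.205%). Because 1 is added to each TPM, these fold changes come out too small where values are low. The pools are the only replicates, and the p-values measure the spread between them.

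**Figure D1:**
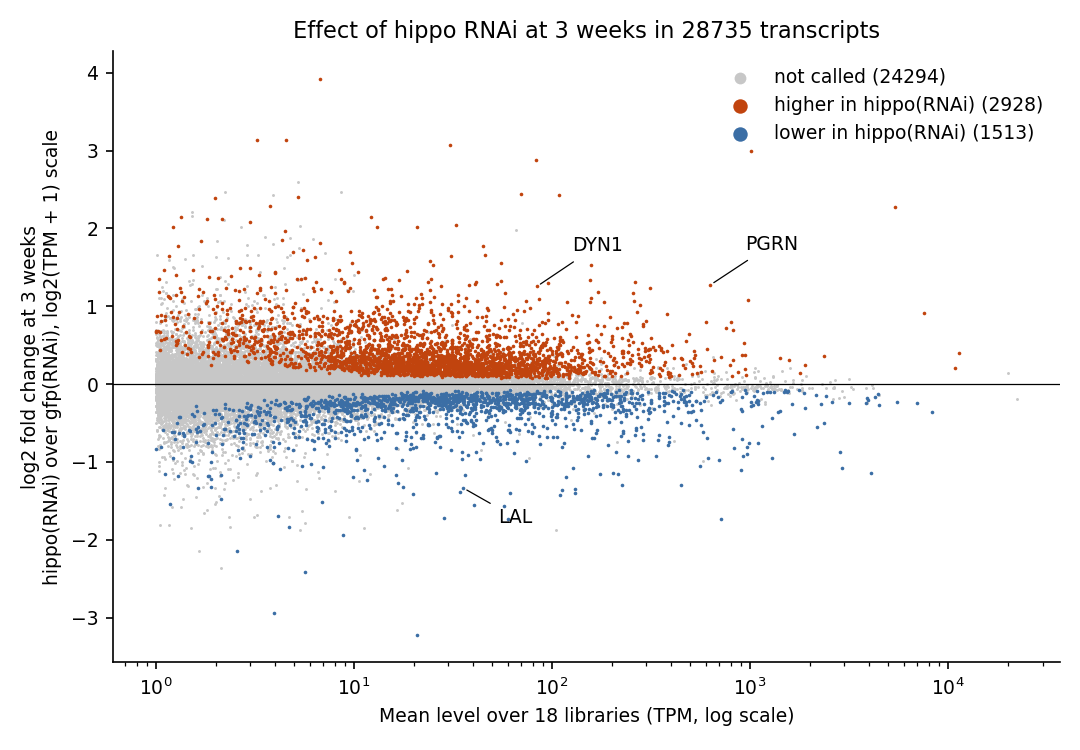
Each point is 1 of the 28735 transcripts tested. The horizontal axis gives its mean level over the 18 libraries in TPM on a log scale, and the vertical axis its log2 fold change at 3 weeks in *hippo (RNAi)* over *gfp (RNAi)* animals. The 2928 transcripts called higher are red, the 1513 called lower blue and the others grey; *PGRN* (1.27), *DYN1* (1.26) and *LAL* (-1.33) lie far from 0 for their level.

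The balance of directions differed between the abundance classes. Among the 9363 transcripts with a mean of 10 to 100 TPM, 1995 were higher in *hippo (RNAi)* animals and 795 were lower, so 29.8% of this class was called. Among the 146 transcripts with a mean of 1000 TPM or more, 10 were higher and 47 were lower. Between 100 and 1000 TPM the numbers were close, with 293 higher and 319 lower of 1168. At 1 to 10 TPM 630 were higher and 352 lower. Of the class at 100 to 1000 TPM 52.4% was called, against 5.44% of the 18058 transcripts at 1 to 10 TPM, where the standard error of a fold change had a median of 0.165. At 10 to 100 TPM that standard error was 0.0566, and at 1000 TPM or more it was 0.0357. The share called was thus low where the standard error was largest. At 1000 TPM or more, where that error was smallest, 39.0% was called, below the share at 100 to 1000 TPM. The part of precision in these shares was not tested. A scaling of the libraries by median ratios changed these counts to 1880 higher and 957 lower at 10 to 100 TPM, and to 10 higher and 50 lower at 1000 TPM or more. With *hippo (RNAi)* library 260O as the only one of its group, the most abundant class had 8 higher and 21 lower, and the class at 100 to 1000 TPM had 224 higher and 201 lower. These counts by class were set against other settings after the values had been seen.

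**Figure D2:**
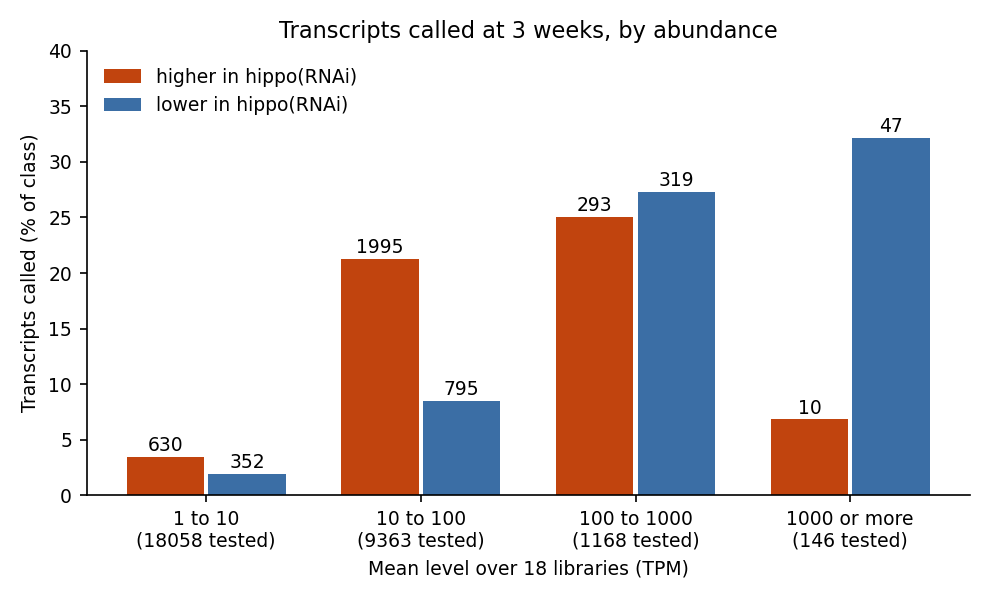
Bars give the share of each abundance class (mean TPM over the 18 libraries) that was called higher (red) or lower (blue) in *hippo (RNAi)* animals at 3 weeks, as a percentage of the transcripts tested in the class, and the number over a bar counts the transcripts. Calls of higher transcripts are in the majority at 10 to 100 TPM (1995 against 795), and calls of lower transcripts at 1000 TPM or more (47 against 10).

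Together, the transcripts called higher held 22.4%, 22.1% and 22.5% of all TPM in *hippo (RNAi)* libraries 266O, 267O and 260O, and 16.1%, 16.7% and 16.2% in control libraries 257O, 258O and 259O. The transcripts called lower held 19.5%, 20.2% and 19.97% in the *hippo (RNAi)* libraries, against 25.2%, 24.7% and 25.3% in the controls. The calls chose these sets, so the shares describe their size in the RNA pool and test nothing. The summed gain of the transcripts called higher was 60007 TPM, and 51 transcripts made up 50 percent of it. The summed change of those called lower was -51847.5 TPM, of which 37 transcripts made up 50 percent. *progranulin* alone gained 535.0 TPM, which was the 8th largest gain and 0.892% of the total.

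Over all transcripts tested, 36.6%, 29.3% and 32.4% lay above all 3 controls in *hippo (RNAi)* libraries 266O, 267O and 260O, and 27.0%, 31.3% and 32.1% lay below them, so the libraries were not alike in this balance. The calls chose transcripts in which these libraries lie away from these controls, so the following counts describe them and test nothing. Of the 2928 transcripts called higher, library 266O lay above all 3 controls in 2921, library 267O in 2913 and library 260O in 2922. All 3 libraries did so in 2901. For the 1513 transcripts called lower, the 3 libraries lay below the controls together in 1495. Across all transcripts tested, the groups did not overlap in 31.7%, and 4710 transcripts without overlap were not called. The transcripts called higher stood above the control mean by a median of 0.34, 0.30 and 0.33 on the log2 scale in libraries 266O, 267O and 260O. Those called lower stood at -0.26, -0.25 and -0.27. With 260O as the only *hippo (RNAi)* library at 3 weeks, limma called 2530 transcripts, 2339 of which were among the 4441, although 1 library is then assumed to vary as the other groups do.

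The control animals at 1 and 4 weeks give a wider background for the same values. Of the transcripts called higher at 3 weeks, 2420 (82.7%) had all 3 *hippo (RNAi)* libraries above all 9 controls of the series. Of those called lower, 1112 (73.5%) had them below all 9. Over all transcripts tested, 10.2% lay above all 9 controls and 5.84% below, or 16.1% in all. With the mean of the 3 control groups as reference, limma called 5679 transcripts, 4231 of which were among the 4441.

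The transcript with the largest fall was dd_Smed_v6_4384_0_1, the only transcript of its assembly number. Its level was 3.11, 2.94 and 3.27 TPM in *hippo (RNAi)* libraries 266O, 267O and 260O, against 38.1, 37.1 and 36.4 TPM in the controls. The groups were far apart, and the values within each differed little. It fell by 3.22 ± 0.08 (SE) on the log2 scale, with adjusted p = 1.15e-11 from limma. Among called transcripts that are alone under their number, the next fall was -1.73. The same transcript was at 4.61 ± 0.49 TPM (SD, n = 3 libraries) in *hippo (RNAi)* animals, against 38.2 ± 4.49 TPM in controls at 1 week, and at 3.29 ± 0.38 and 38.4 ± 0.72 TPM at 4 weeks. It was low in all 9 *hippo (RNAi)* libraries. The table used here gives it no gene name, so whether it is the transcript that the injected double-stranded RNA targets could not be checked.

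The other extreme transcripts were of another kind. The largest rises were those of dd_Smed_v6_1062_0_4, with 14.4, 12.5 and 15.9 TPM in the 3 *hippo (RNAi)* libraries at 3 weeks, and of dd_Smed_v6_8451_0_4, with 7.62, 8.12 and 7.76 TPM. Both were listed at 0 in all 3 controls at 3 weeks, so no fold is given. dd_Smed_v6_3286_0_23 was listed at 0 in the 3 *hippo (RNAi)* libraries and had 6.90, 7.47 and 5.71 TPM in the controls. These belong to assembly numbers with 7, 8 and 27 listed transcripts, among which kallisto divides the reads. The TPM summed over number 1062 was 267 ± 12.6 in *hippo (RNAi)* animals, against 308 ± 24.8 in controls, so the sum was lower where the single transcript was higher. The sum over number 8451 was 25.6 ± 0.79 in *hippo (RNAi)* animals, against 11.8 ± 0.44 in controls. The sum over number 3286 was 122 ± 4.19 in *hippo (RNAi)* animals, against 110 ± 4.96 in controls, so the sum was higher where the single transcript was listed at 0. At 4 weeks dd_Smed_v6_3286_0_23 was at 7.34 ± 0.21 TPM in *hippo (RNAi)* animals. It was listed at 0 in 2 of the 3 controls of that week, with 6.36 TPM in the other. Its call at 3 weeks (adjusted p = 0.0445 from limma) was lost on leaving out any one of the 6 libraries, with an adjusted p of up to 0.109 from limma. For dd_Smed_v6_1062_0_4, the summed TPM of the number were called in the other direction (log2 fold change -0.20). The same held for dd_Smed_v6_3286_0_23 (0.16). For dd_Smed_v6_8451_0_4 the summed TPM were called in the same direction as the single transcript (1.05, adjusted p = 9.32e-08 from limma).

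**Figure D3:**
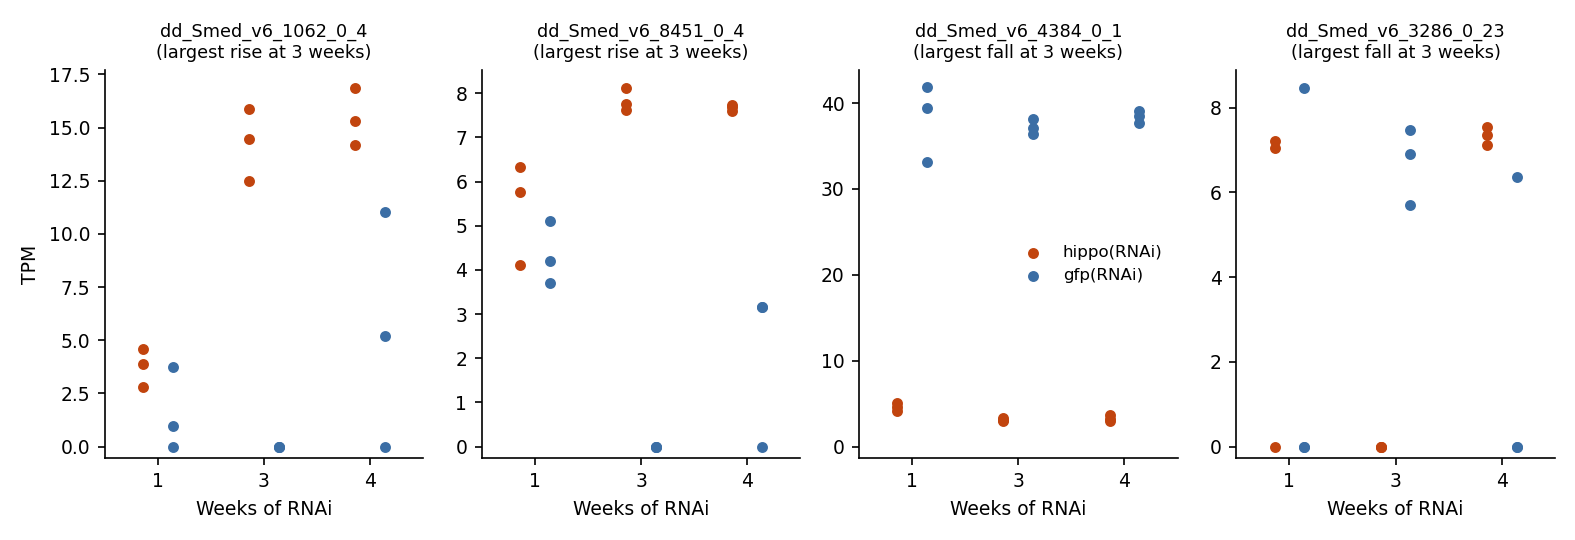
Points are single libraries, with TPM on the vertical axes and weeks of RNAi on the horizontal axes, *hippo (RNAi)* in red left of *gfp (RNAi)* in blue, for the 2 largest rises and the 2 largest falls at 3 weeks; libraries at 0 lie on top of each other. dd_Smed_v6_4384_0_1 is low in *hippo (RNAi)* animals at every week (3.11 TPM against 37.2 TPM in the mean at 3 weeks), whereas the other 3 are listed at 0 in 1 group at 3 weeks and vary between libraries of the same group at other weeks.

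Such divided transcripts were a minority of the calls. Of the 4441 called transcripts, 3333 were alone under their number, which is 18.9% of the 17622 such transcripts tested. Among the 11113 transcripts of shared numbers 9.97% were called. In 195 numbers at least 2 transcripts were called, and these were all higher in 113 numbers, all lower in 53 and of opposite directions in 29. Changes of at least 4-fold were rare, with 21 transcripts higher and 4 lower. Of these 25, 12 belonged to shared numbers, and 7 of the 21 were listed at 0 in all 3 controls.

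Gene names are known here for 20 assembly numbers, which the study singled out as cell cycle genes by homology. It chose them on these libraries, so their counts are no independent evidence of a direction. The most abundant transcript of each number is described. At 3 weeks, limma called 9 of the 20 higher and 5 lower in *hippo (RNAi)* animals, 70% of the list against 15.5% of all transcripts tested. The latter share is not matched to the level of the listed genes. By mean level it was 5.44% at 1 to 10 TPM, 29.8% at 10 to 100 TPM and 52.4% at 100 to 1000 TPM. The median log2 fold change of the list was 0.09, against 0.00 over all transcripts. Only 6 of the 14 called genes changed by at least 1.5-fold. In 17 genes the 3 *hippo (RNAi)* libraries did not overlap the controls of 3 weeks (31.7% of all transcripts tested), and in 12 they lay outside all 9 controls (16.1%).

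**Figure D4:**
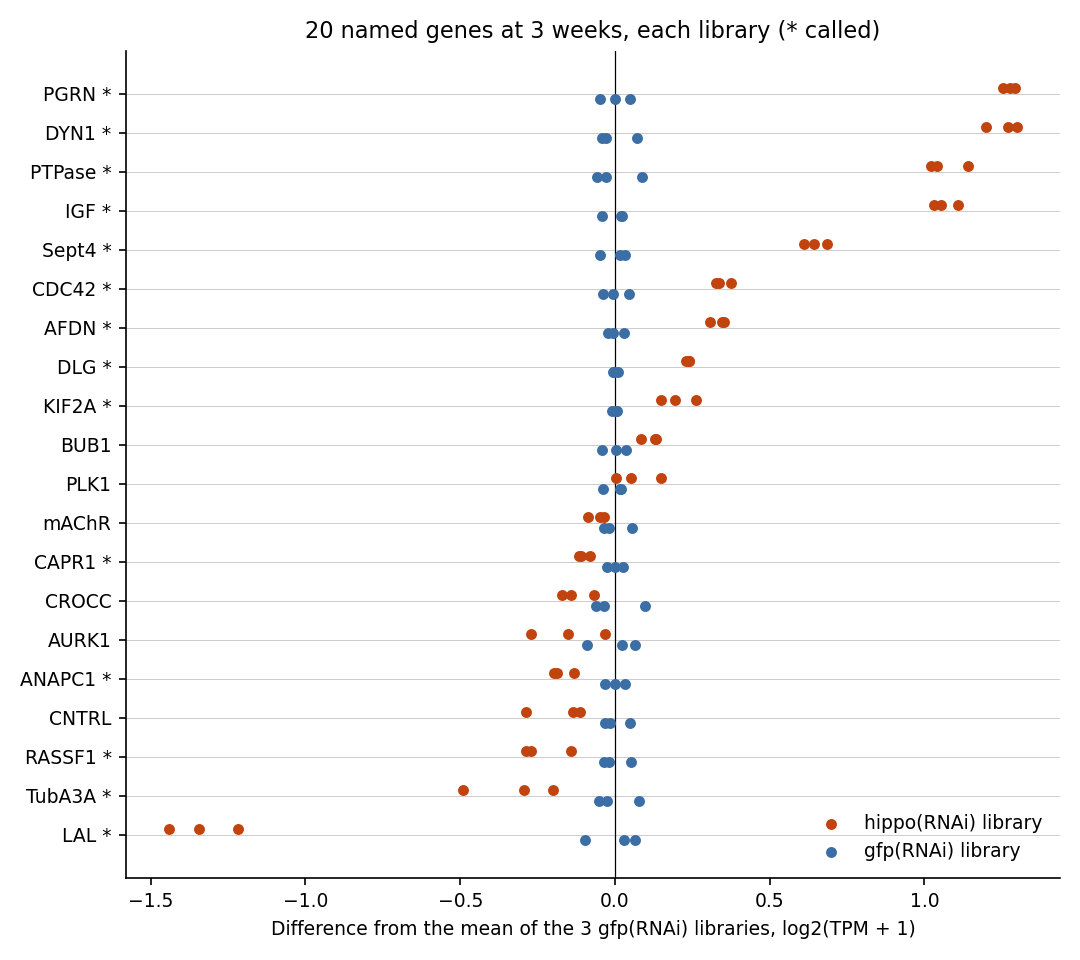
Each row is 1 of the 20 named genes at 3 weeks and each point 1 library, *hippo (RNAi)* in red drawn above *gfp (RNAi)* in blue, as the difference from the mean of the 3 controls on the log2(TPM + 1) scale; an asterisk marks a gene called by limma. The 4 genes at the top (*PGRN*, *DYN1*, *PTPase*, *IGF*) and *LAL* at the bottom lie at least 1 log2 unit from their controls, and the others are much closer.

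Of 7 genes linked with growth and the first gap phase of the cell cycle, 4 rose and 2 fell. *progranulin* (*PGRN*, dd_Smed_v6_67_0_1), a secreted growth factor precursor in vertebrates, had 898, 923 and 913 TPM in the *hippo (RNAi)* libraries and 364, 389 and 376 TPM in the controls. The mean was 2.42 times that of the controls, and its log2 fold change of 1.27 (SE 0.08) ranked 191st in absolute size among all transcripts tested. *insulin-like growth factor* (*IGF*, dd_Smed_v6_3513_0_1), a ligand of insulin-type receptors, had 49.9, 47.2 and 47.9 TPM in *hippo (RNAi)* animals, against 21.9, 22.9 and 23.0 TPM in controls. Both ligands lay above all 9 controls of the series, the highest of which had 516 TPM for *PGRN* and 26.2 TPM for *IGF*. The *protein tyrosine phosphatase* (*PTPase*, dd_Smed_v6_9638_0_1), of a family of enzymes that remove phosphate from tyrosine, had 22.4, 24.5 and 22.8 TPM in *hippo (RNAi)* animals, against 10.1, 10.3 and 11.3 TPM in controls. A second transcript of its number rose by as much, with 6.14 ± 0.72 TPM (SD, n = 3 libraries) in *hippo (RNAi)* animals, against 2.44 ± 0.60 TPM in controls, so these 2 forms moved together. The log2 fold changes were 1.07 for the first form and 1.06 for the second (adjusted p = 1.23e-06 and 0.00526 from limma).

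*CDC42* (dd_Smed_v6_698_0_1), a small GTPase that organises actin and cell polarity in yeast and animals, rose less. It had 263, 255 and 257 TPM in *hippo (RNAi)* animals, against 202, 209 and 198 TPM in controls. Its mean was 1.27 times that of controls (log2 fold change 0.35, standard error 0.03, adjusted p = 4.07e-06 from limma). The highest of all 9 controls had 226 TPM, below each of these libraries. *lysosomal acid lipase* (*LAL*, dd_Smed_v6_4693_0_1), which breaks down cholesteryl esters and triglycerides in the lysosome, fell the most of the 20 genes. It had 16.8, 19.8 and 18.03 TPM in *hippo (RNAi)* animals, against 44.2, 48.3 and 49.5 TPM in controls. The mean was 0.384 times that of controls, and no control of any week was below 36.4 TPM. *caprin 1* (dd_Smed_v6_936_0_1), an RNA-binding protein of stress granules in mammals, had 292, 293 and 299 TPM in *hippo (RNAi)* animals, against 317, 322 and 311 TPM in controls. This fall was called (log2 fold change -0.10, adjusted p = 0.00724 from limma), but the mean stayed at 0.931 times that of controls and controls of other weeks reached down to 298 TPM. The muscarinic acetylcholine receptor (*mAChR*, dd_Smed_v6_25466_0_1) had 2.30, 2.22 and 2.34 TPM in *hippo (RNAi)* animals, against 2.37, 2.33 and 2.55 TPM in controls. These groups overlapped and the difference was not called.

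Of 3 genes of cytokinesis and membrane division, 2 rose. *dynamin 1-like* (*DYN1*, dd_Smed_v6_1074_0_1), a GTPase that divides mitochondria in yeast and animals, had 121, 127 and 130.0 TPM in *hippo (RNAi)* animals, against 51.1, 50.7 and 54.9 TPM in controls. The mean was 2.41 times that of controls. *septin 4* (*Sept4*, dd_Smed_v6_4007_0_1), of a family of filament proteins that gather at the cleavage furrow, had 66.8, 64.9 and 63.3 TPM in *hippo (RNAi)* animals, against 42.2, 41.6 and 39.8 TPM in controls, 1.58 times as much. For both genes every *hippo (RNAi)* library lay above all 9 controls, which reached 58.6 TPM for *DYN1* and 42.2 TPM for *Sept4*. The *centriolin* transcript dd_Smed_v6_10369_0_1, for a centriole protein that vertebrate cells need to separate, had 7.41, 8.34 and 8.49 TPM in *hippo (RNAi)* animals, against 9.16, 9.03 and 9.61 TPM in controls. It was below all 9 controls in every library, but not called at 3 weeks (log2 fold change -0.18, adjusted p = 0.144 from limma). With the mean of the 3 control groups as reference it was called at -0.19 (adjusted p = 0.0409 from limma).

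The 4 genes of the spindle, the ciliary rootlet and microtubules included 1 called higher and 2 called lower, none by 1.5-fold or more. *kinesin family member 2A* (*KIF2A*, dd_Smed_v6_3087_0_1), a motor that shortens microtubules at their ends, had 37.2, 34.3 and 35.4 TPM in *hippo (RNAi)* animals, against 30.6, 30.97 and 30.96 TPM in controls. It rose by 0.20 on the log2 scale, with adjusted p = 0.00105 from limma, and lay above all 9 controls, of which the highest had 31.3 TPM. *alpha tubulin 3A* (*TubA3A*, dd_Smed_v6_10947_0_3), a building block of microtubules, had 9.89, 7.91 and 9.21 TPM in *hippo (RNAi)* animals, against 11.1, 12.2 and 11.3 TPM in controls. The log2 fold change was -0.33, and the call was lost with the 6 libraries of 3 weeks alone (adjusted p = 0.0553 from limma). Summed over the 4 listed transcripts of its number, the level was 11.4 ± 0.74 TPM in *hippo (RNAi)* animals, against 14.7 ± 0.46 TPM in controls. *RASSF1* (dd_Smed_v6_3858_0_2), a scaffold that binds Hippo-type kinases in mammals, had 29.9, 33.2 and 30.3 TPM in *hippo (RNAi)* animals, against 38.1, 35.8 and 36.3 TPM in controls. It was called lower (log2 fold change -0.23, adjusted p = 0.0369 from limma), and leaving out 5 of the 6 libraries in turn removed the call (adjusted p of up to 0.134 from limma). Its 2 transcripts summed to 50.6, 50.6 and 51.9 TPM in *hippo (RNAi)* animals, against 61.4, 58.1 and 59.4 TPM in controls, and these sums did not overlap. *rootletin* (*CROCC*, dd_Smed_v6_1404_0_1), the main protein of the ciliary rootlet in vertebrates, had 106, 104 and 112 TPM in *hippo (RNAi)* animals, against 125, 112 and 114 TPM in controls. Library 260O nearly reached the lowest control, and the gene was not called at 3 weeks. Against the mean of the 3 control groups it was called at -0.13 (adjusted p = 0.0410 from limma).

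Of 4 genes of mitotic kinases, the spindle checkpoint and anaphase, 1 was called. *anaphase promoting complex subunit 1* (*ANAPC1*, dd_Smed_v6_10448_0_1), a scaffold subunit of the ubiquitin ligase that starts anaphase, had 8.61, 8.19 and 8.24 TPM in *hippo (RNAi)* animals, against 9.53, 9.30 and 9.76 TPM in controls. The groups did not overlap, and the fall was small (log2 fold change -0.17, adjusted p = 0.0343 from limma). Its call was lost without any 1 of 5 libraries (adjusted p of up to 0.116 from limma). *BUB1* (dd_Smed_v6_8780_0_1), a kinase of the spindle checkpoint, had 14.2, 13.7 and 14.2 TPM in *hippo (RNAi)* animals, against 12.9, 12.5 and 13.2 TPM in controls, with no call (0.12 on the log2 scale). Against the mean of the 3 control groups it was called at 0.15 (adjusted p = 0.0205 from limma). *aurora kinase 1* (*AURK1*, dd_Smed_v6_12125_0_1) had 5.92, 5.37 and 4.86 TPM in *hippo (RNAi)* animals, against 6.41, 5.65 and 6.20 TPM in controls, and these groups overlapped. *polo-like kinase 1* (*PLK1*, dd_Smed_v6_13738_0_1) had 5.48, 4.86 and 5.05 TPM in *hippo (RNAi)* animals, against 4.70, 4.93 and 4.91 TPM in controls, again with overlap. Its second transcript had 1.94, 1.59 and 1.80 TPM in *hippo (RNAi)* animals, against 2.72, 2.47 and 2.93 TPM in controls and was called lower (log2 fold change -0.42, adjusted p = 0.0256 from limma). Across this group none lay outside all 9 controls.

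Both genes of polarity and junctions rose, with little spread. *discs large* (*DLG*, dd_Smed_v6_8293_0_1), a scaffold of the lateral membrane in flies and vertebrates, had 15.7, 15.6 and 15.7 TPM in *hippo (RNAi)* animals, against 13.2, 13.1 and 13.3 TPM in controls. *afadin* (*AFDN*, dd_Smed_v6_9564_0_1), which ties adherens junctions to actin, had 13.8, 13.4 and 13.8 TPM in *hippo (RNAi)* animals, against 10.4, 10.6 and 10.9 TPM in controls. The mean of *DLG* was 1.19 times that of controls, and the mean of *AFDN* 1.29 times. On the log2 scale *DLG* rose by 0.24, with adjusted p = 0.00877 from limma, and *AFDN* by 0.34, with adjusted p = 2.71e-05. In absolute size these changes ranked 7899th and 4736th among the 28735 transcripts. The highest control of any week reached 15.3 TPM for *DLG*, close to the *hippo (RNAi)* values. A comparison of 3 libraries with 3 cannot reach an exact permutation p below 0.1, which is the smallest p that test allows, so the calls rest on limma.

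The comparisons at 1 and 4 weeks share no library with that at 3 weeks. Among the 2928 transcripts called higher at 3 weeks, the median log2 fold change was 0.08 at 1 week and 0.33 at 4 weeks, against 0.32 at 3 weeks itself. The sign at 1 week was positive in 85.6% of them, against 55.6% of all transcripts tested, and at 4 weeks in 98.8%, against 50.4% of all. The 1513 transcripts called lower had medians of -0.05 at 1 week and -0.27 at 4 weeks, with a negative sign in 76.2% (44.4% of all) and 96.8% (49.6% of all). The medians at 3 and 4 weeks were close, and those at 1 week were smaller with the same sign. Both later weeks hold *hippo (RNAi)* libraries of the run 266O to 269O, so their likeness was also computed without these, with 260O and 264O as the only *hippo (RNAi)* libraries of their weeks. The 1548 transcripts then called higher at 3 weeks had a median of 0.43 at 3 weeks and 0.45 at 4 weeks, and the 727 called lower had -0.39 and -0.31. In this fit 99.4% of the former had a positive sign at 4 weeks, against 52.3% of all transcripts. A negative sign was found in 93.8% of the latter, against 47.6% of all. This fit was added after the values had been seen, and the single libraries are assumed to vary like the other groups. At 4 weeks limma called 21.6% of transcripts, 13% higher and 8.54% lower. The transcripts called higher at both weeks numbered 2501, which is 85.4% of those of 3 weeks and 66.8% of those of 4 weeks. Those called lower at both numbered 1151, or 76.1% and 46.9%. At 1 week 0.849% of transcripts were called (0.654% higher, 0.195% lower), and 161 of the 188 higher and 49 of the 56 lower were called in the same direction at 3 weeks. A total of 781 transcripts were called at 3 weeks alone, 424 higher and 357 lower. Of these 89.8% had the same sign at 4 weeks.

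The difference between the effects was tested as well. In limma, 5.11% of all transcripts had an effect at 3 weeks that differed from that at 1 week. These included 1046 (35.7%) of the transcripts called higher at 3 weeks and 341 (22.5%) of those called lower. In all of these the difference (3 weeks minus 1 week) had the sign of the effect at 3 weeks. Choosing them by their effect at 3 weeks favours that direction. Between 4 and 3 weeks the share was 0.0104%. The courses of *PGRN*, *LAL* and *AFDN* are given as examples. *PGRN* was at 638 ± 85.8 TPM in *hippo (RNAi)* animals, against 468 ± 42.98 TPM in controls at 1 week (SD, n = 3 libraries). It was at 911 ± 12.4 and 376 ± 12.6 TPM at 3 weeks, and at 989 ± 13.5 and 399 ± 17.0 TPM at 4 weeks. Part of its difference between 3 weeks and 1 week thus lay in the controls. They changed by -0.31 on the log2 scale, without a call (adjusted p = 0.137 from limma). *LAL* was at 29.6 ± 0.81 TPM in *hippo (RNAi)* animals, against 42.6 ± 5.36 TPM in controls at 1 week, at 18.2 ± 1.51 and 47.3 ± 2.80 TPM at 3 weeks, and at 18.8 ± 1.93 and 57.2 ± 2.05 TPM at 4 weeks. *AFDN* was at 11.7 ± 0.70 TPM in *hippo (RNAi)* animals, against 10.8 ± 0.27 TPM in controls at 1 week, at 13.7 ± 0.26 and 10.6 ± 0.22 TPM at 3 weeks, and at 14.4 ± 0.24 and 10.9 ± 0.03 TPM at 4 weeks. Between the controls of 3 weeks and of 1 week 0.143% of transcripts differed in limma, and between those of 4 and 3 weeks 0.00696%. For *LAL* the *hippo (RNAi)* libraries of 3 and 4 weeks overlapped. For *PGRN* and *AFDN* all *hippo (RNAi)* libraries of 4 weeks lay above those of 3 weeks. The highest at 3 weeks had 923 and 13.8 TPM, and the lowest at 4 weeks 979 and 14.1 TPM. The *AFDN* controls also lay higher at 4 weeks (lowest 10.88 TPM) than at 3 weeks (highest 10.87 TPM), whereas those of *PGRN* overlapped. The effect at 4 weeks minus that at 3 weeks was 0.035 for *PGRN* and 0.036 for *AFDN* on the log2 scale. Neither was called (adjusted p = 0.983 and 0.954 from limma).

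**Figure D5:**
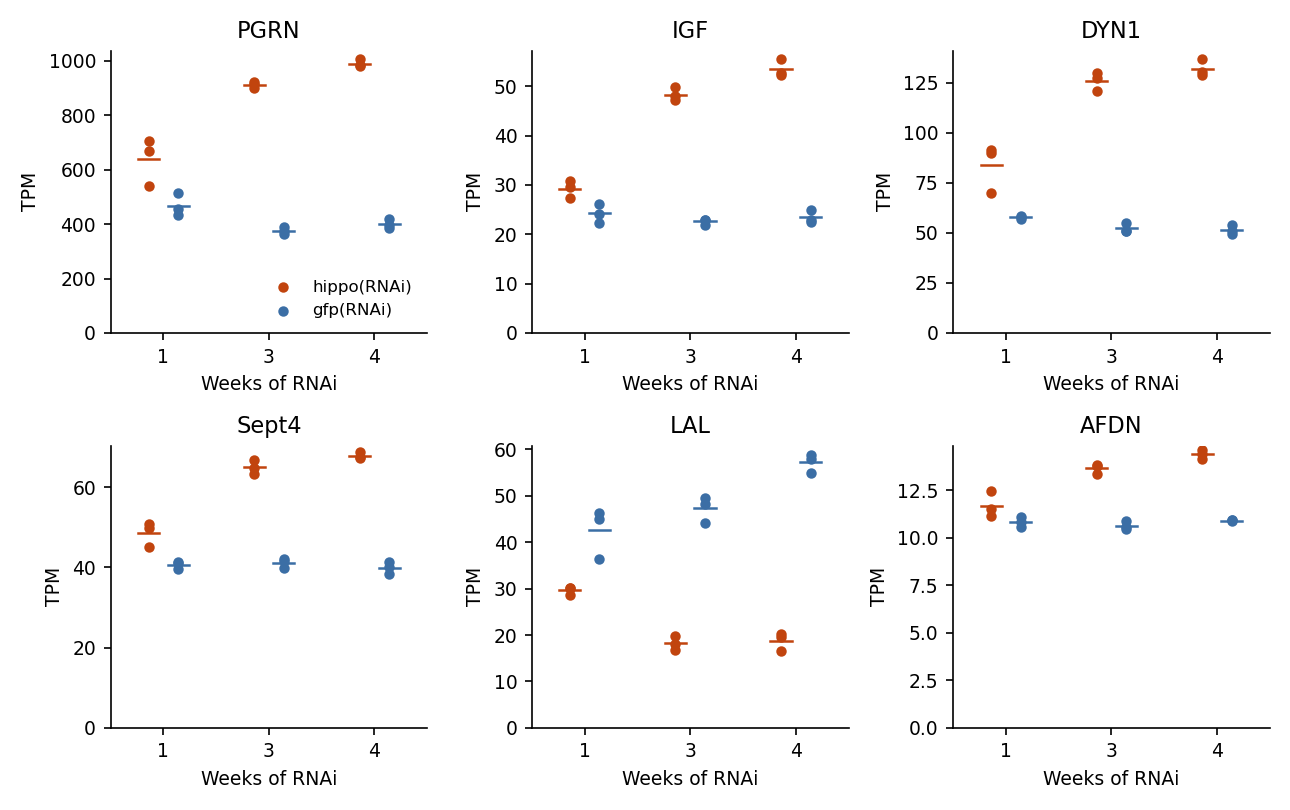
Points are single libraries and short lines the means of 3 libraries, in TPM on the vertical axes from 0, at 1, 3 and 4 weeks of RNAi, with *hippo (RNAi)* in red left of *gfp (RNAi)* in blue. In all 6 genes the groups are further apart at 3 weeks than at 1 week, as for *PGRN* with 911 against 376 TPM at 3 weeks and 638 against 468 TPM at 1 week.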

How the data were processed

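RNA of *S. mediterranea* pools was read as paired ends from stranded poly(A) libraries. The deposited values are TPM, which the authors obtained with kallisto 0.43.0 from the dd_Smed_v6 assembly. For read numbers and trimming, nothing is stated in the sources used here. All 18 columns were matched to samples by library number, and groups were taken from the treatment labels.

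From the TPM, log2(TPM + 1) was fitted with limma 3.58.1 in R 4.3.3 for transcripts averaging 1 TPM or more across all libraries (trend in the variance, 6 group means, Benjamini-Hochberg adjustment over all transcripts, FDR of 0.05). The procedure was checked on simulated data. Named genes were the 20 codes listed by the study, taken from it by name only, and the 2 largest rises and 2 largest falls at 3 weeks among called transcripts without overlap of the groups. The comparison, the lists and the tests were chosen with earlier results of these data known. Alternatives covered the pseudocount, filter, libraries, reference, scaling, weights, FDR and summed transcripts. Figures were drawn with matplotlib 3.10.9.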

Additional observations from a re-analysis of the deposited data

Results flagged for a closer look

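The effect of *hippo* RNAi at 3 weeks differed from that at 1 week by a test of the difference in limma for 1468 transcripts, and the effect at 4 weeks differed from that at 3 weeks for 3. Among the named genes, the difference on the log2 scale (3 weeks minus 1 week) was 0.83 for *PGRN*, 0.80 for *IGF*, 0.74 for *DYN1*, 0.55 for *PTPase*, 0.40 for *Sept4*, 0.29 for *CDC42*, 0.23 for *AFDN* and -0.83 for *LAL*. For dd_Smed_v6_8451_0_4, listed at 0 in the controls of 3 weeks, it was 2.89, a size that the added 1 sets and that is no measure of a fold. With pseudocounts of 0.5 and 0.1 the value at 3 weeks alone was 4.06 and 6.31, against 3.14 with 1. This transcript had 5.403 ± 1.15 TPM (SD, n = 3 libraries) in *hippo (RNAi)* animals, against 4.34 ± 0.72 TPM in controls at 1 week, so the difference between the weeks went with a change of the level listed in controls. None of the named genes had a called difference between 4 and 3 weeks.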

How the results depend on the processing

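Calls at 3 weeks, 4441 as reported, numbered 2903 at an FDR of 0.01 (819 of them lower) and 2530 (1733 higher, 797 lower) without *hippo (RNAi)* libraries 266O and 267O, which leaves 1 library in that group. Leaving out 1 library gave between 3492 and 3938 calls. With the 6 libraries of 3 weeks alone there were 3651, of which 3320 were among the 4441. Calls of at least 2-fold were 334 with a pseudocount of 0.1 and 108 with a filter of 10 TPM, which tests fewer transcripts, and those of at least 1.5-fold were 470 with that filter. Calls of the difference between 3 and 1 week were 724 at an FDR of 0.01 and 872 without libraries 266O and 267O. Those between 4 and 3 weeks were 1 with a pseudocount of 0.1, 0 at an FDR of 0.01 and between 0 and 2 without 1 library. The named genes called numbered between 10 and 17 under every alternative, against 14.

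*PLK1* turned to -0.11 with its transcripts summed and to -0.0028 against all controls, without a call in any setting. With transcripts summed, dd_Smed_v6_1062_0_4 turned to -0.20 and dd_Smed_v6_3286_0_23 to 0.16. Without libraries 266O and 267O, *CAPR1*, *RASSF1*, *ANAPC1* and *DLG* were not called, at log2 fold changes of -0.08, -0.27, -0.19 and 0.24. The cause was not tested. No paired analysis was possible because the labels carry no replicate numbers. The depth behind the TPM is unknown.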

Other observations

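Few transcripts were called between controls of the weeks that surround this comparison. In limma, 41 transcripts differed between controls at 3 weeks and at 1 week, and 2 between 4 and 3 weeks. A change without a call is not excluded by this. In controls *PGRN* changed by -0.31 on the log2 scale from 1 to 3 weeks, and *LAL* by 0.27 from 3 to 4 weeks. Neither was called (adjusted p = 0.137 and 0.889 from limma). Of the transcripts called under *hippo* RNAi at 3 weeks, 18 of those that were higher and 11 of those that were lower were among the 41. The transcripts called higher had a median change of -0.06 on the log2 scale in controls at 3 weeks against 1 week, and those called lower one of 0.04. The controls of 3 weeks enter both differences.

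A total of 14 tested transcripts were listed at 0 in all 3 controls and above 0 in all 3 *hippo (RNAi)* libraries at 3 weeks, and 8 of them were called. The reverse held for 9 transcripts, of which 3 were called. Of the 11 called, 10 belong to assembly numbers with more than 1 transcript.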
